A study of Mus musculus with 45 samples.

Results

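The 40 genes described here act in the cell division cycle and in DNA replication, and all 40 were found among the 24422 genes of the count table. They were chosen by gene symbol. By role they comprise the 3 D-type G1 cyclins (Ccnd1, Ccnd2, Ccnd3), the G1/S cyclins Ccne1 and Ccne2, 10 genes of replication licensing and of the replicative helicase (Cdc6, Cdt1, Mcm2 to Mcm7, Cdc45, Gins2), 5 genes of the replication clamp and of nucleotide supply (Pcna, Rrm1, Rrm2, Tyms, Tk1), 6 genes of S phase and mitotic entry and exit (Ccna2, Ccnb1, Ccnb2, Cdk1, Cdc20, Ube2c), 6 of the mitotic kinases and the spindle checkpoint (Aurka, Aurkb, Bub1, Bub1b, Plk1, Birc5), 7 of the spindle and chromosomes (Tpx2, Nusap1, Cenpa, Kif11, Kif20a, Top2a, Stmn1) and the proliferation antigen Mki67. RNA was measured by STRT RNA-seq, which reads the 5′ ends of polyadenylated transcripts and merges amplification copies through a molecular identifier. The mice were CD-1 females, an outbred stock, 1 to 3 months old.

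The WT group held 7 mice and the Plag1KO group (KO) held 7 mice in which lacZ had replaced the Plag1 coding sequence throughout the animal. All 14 mice, WT included, had received 5 IU of pregnant mare serum, then 5 IU of human chorionic gonadotropin 2 days later, and were killed on the next day after being placed with WT males, so every group was hormone-treated and no untreated group was analysed. A piece of intact uterine horn (uterus), the inner layer collected by scraping with a scalpel (endometrium) and what remained of the wall (myometrium) were taken from each mouse. This gave 6 groups of 7 mice and 42 samples from 45 libraries, with 256298 to 1222627 gene counts per library.

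Dividing cells express these genes in waves. D-type cyclins couple mitogen signals to the restriction point in G1. E2F-driven genes of licensing and nucleotide supply follow at the start of S phase. A later wave in G2 and mitosis serves the spindle and includes Cdc20 and Ube2c, which act with the anaphase-promoting complex. In the mouse uterus the ovarian steroids govern which cells divide, with oestrogen known for epithelial proliferation and progesterone for a shift to the stroma. In a piece of tissue, fewer dividing cells and less RNA of a gene per cell cannot be told apart.

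The later wave is known to be repressed outside G2 through a promoter element called CHR, and the earlier wave to be controlled by E2F sites. RefSeq promoters (GRCm38.p6, 250 bases before to 50 bases after the start) were matched for 30 of the 40 genes, and not for Ccnd1, Ccnd2, Ccne2, Mcm4, Gins2, Ccna2, Aurkb, Tpx2, Kif20a and Stmn1. The CHR letters TTTGAA were searched on both strands, and a gene was counted if any promoter listed for it matched. They stood in 11 of 15 S phase, mitotic, spindle and Mki67 genes (73.3%). Among the licensing, helicase, clamp and nucleotide genes they stood in 2 of 13 (15.4%). Among all 27025 genes with promoters of the same length the share was 20.2%. The E2F letters TTTGGCGC, TTTGCCGC, TTTCGCGC and TTTCCCGC were searched in the same way. They stood in 6 of 13 replication genes (46.2%: Cdc6, Cdt1, Mcm3, Mcm5, Mcm6 and Mcm7), in 1 of 15 mitotic genes (6.67%: Cdk1) and in 2.6% of all 27025. CCAAT, which overlaps neither motif by its letters, stood in 23 of the 30 matched genes of the set (76.7%) and in 41.1% of all 27025. A match to these letters is a description and not a bound site.

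Windows of 60 bases are shown for 4 genes with a CHR match that differed between the layers or carry the label of proliferation (Ube2c, Cdc20, Top2a and Mki67), for Mcm2, a helicase gene with CHR letters, and for 3 helicase genes with E2F letters. Each reads 5′ to 3′ along the gene, with the matched letters in capitals, in forward or reverse orientation. On mm9 they lay at chr2:164595369-164595428 (plus strand), chr4:118109949-118110008 (minus), chr11:98885504-98885563 (minus), chr7:142908127-142908186 (minus), chr6:88848811-88848870 (minus), chr8:77633233-77633292 (plus), chr1:130256296-130256355 (minus) and chr5:138613243-138613302 (minus), in the order printed.
Ube2c CHR: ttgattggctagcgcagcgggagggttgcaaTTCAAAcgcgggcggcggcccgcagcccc
Cdc20 CHR: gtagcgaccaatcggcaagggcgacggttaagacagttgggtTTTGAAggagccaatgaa
Top2a CHR: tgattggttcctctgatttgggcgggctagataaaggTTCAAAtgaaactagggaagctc
Mki67 CHR: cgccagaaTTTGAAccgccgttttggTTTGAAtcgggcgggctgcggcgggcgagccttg
Mcm2 CHR: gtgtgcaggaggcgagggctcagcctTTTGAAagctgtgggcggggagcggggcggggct
Mcm5 E2F: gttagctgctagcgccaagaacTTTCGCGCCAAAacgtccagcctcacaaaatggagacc
Mcm6 E2F: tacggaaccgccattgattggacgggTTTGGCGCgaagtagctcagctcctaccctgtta
Mcm7 E2F: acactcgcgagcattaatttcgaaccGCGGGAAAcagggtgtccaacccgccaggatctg
In Ube2c the letters began 29 bases before the RefSeq start, in Top2a 23 bases and in Cdc20 18 bases before it. The annotation used here for gene positions starts Ube2c at 164595398 and Mcm7, on the minus strand, at 138613650. By that annotation the printed letters of these genes lie inside the gene. The Mcm5 window held 2 overlapping E2F matches, and the Mki67 window held 2 separate CHR matches.

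The set was lowly expressed and its counts bound what could be seen. All 40 genes together took 16680 counts, 0.0525% of the gene counts of the 42 samples. In all 42 samples at least 1 count was seen for 11 genes, 21 genes had over 200 counts in the whole series, and 13 had under 100. Ccne1 (cyclin E1), Cdc6 (a licensing factor) and Bub1 (a checkpoint kinase) never passed 3 counts in any sample, the floor used here. Expression is given as CPM, the count scaled to the total of its library with TMM factors. Since 5′ ends were counted, levels were not divided by transcript length. Mean levels over all samples were highest for Ccnd3 (77.4 CPM), Ccnd2 (76.0), Ccnd1 (55.8) and Stmn1 (44.4), a microtubule-destabilising protein. Ube2c (35.3), Top2a (30.9) and Cenpa (23.9), the centromeric histone, followed. Pcna, the replication clamp, stood at 11.2 and Mki67 at 8.54 CPM.

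Summed over roles, the D-type cyclins and the dividing-cell genes ranked the layers in opposite order. The 3 D-type cyclins summed to 181 ± 23.7 CPM in WT endometrium and 148 ± 22 in KO endometrium, against 261 ± 69.8 and 253 ± 36.8 in myometrium (SD, n = 7 each), and the endometrial sum was the higher in only 1 of 14 mice. The 20 genes of G2 and mitosis (the last 4 roles) ran the other way. Their sum ran from 111 through a median of 220 to 460 CPM in WT endometrium and from 107 through 180 to 366 in KO endometrium, but from 48.0 through 138 to 179 in WT myometrium and from 102 through 137 to 145 in KO myometrium. Endometrium exceeded myometrium in 11 of 14 mice, and uterus exceeded myometrium in 14 of 14. The 15 replication genes summed to 139 ± 52.6 and 125 ± 47.3 CPM in WT and KO endometrium and to 106 ± 15 and 77.8 ± 10.1 in myometrium, higher in endometrium in 12 of 14 mice. With spike-in scaling the mean sums of the D-type cyclins were 167 and 161 in WT and KO endometrium and 205 and 194 in myometrium, but the endometrial sum was then the higher in 4 of 14 mice. The G2 and mitosis sum rested most on Top2a, Stmn1, Ube2c and Cenpa, with means of 65.7, 43.1, 41.5 and 21.6 CPM in WT endometrium. These sums carry no test.

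**Figure D1:**
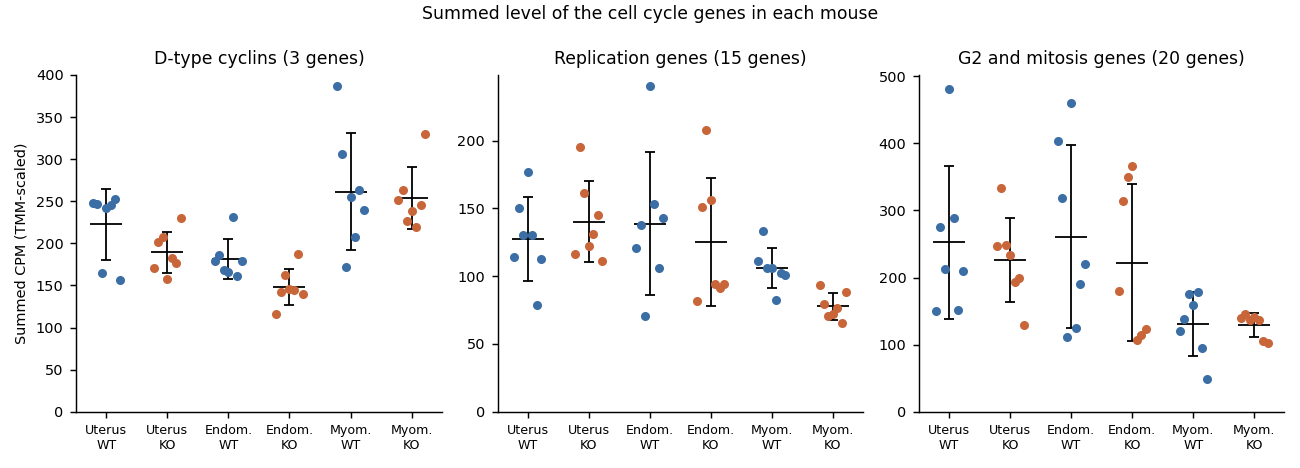
Summed CPM of the D-type cyclins (3 genes), the replication genes (15 genes) and the G2 and mitosis genes (20 genes) for each of 7 mice per tissue and genotype; horizontal bars are means and whiskers SD. In myometrium the G2 and mitosis sums stay between 48.0 and 179 CPM, while in endometrium they spread from 107 to 460 CPM.

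The layers were compared over all 14 mice as endometrium against myometrium, averaged over the genotypes, with edgeR's quasi-likelihood test and Benjamini-Hochberg adjustment over 14314 genes. Like the other main comparisons of tissues, this fit used group means and did not pair samples of the same mouse. The fit with mouse as a replicate block, which does, called 12 genes of the set. Of 39 genes of the set tested (all but Cdc6), 13 were higher in endometrium at adjusted p under 0.05, where 14.9% of all genes were, and 2 were lower, where 13.4% of all genes were. The 13 were Mcm2, Cdc45, Rrm2, Tyms, Tk1, Ccnb1, Cdc20, Ube2c, Bub1b, Plk1, Birc5, Tpx2 and Top2a, and the 2 were Ccnd1 and Ccnd2. The median log2 fold change of the 39 was 0.63, against 0.04 over all genes tested, and 32 of 39 were fitted above 0. Scaling to the ERCC spike-ins kept Ccnd1 and Ccnd2 fitted lower in endometrium but took away both calls, at -0.60 (adjusted p = 0.141) and -0.30 (adjusted p = 0.369), while the median of all genes moved to 0.39. The calls on Rrm2, Tyms, Ube2c, Plk1, Birc5, Tpx2 and Top2a held in every alternative in which the gene was tested.

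**Figure D2:**
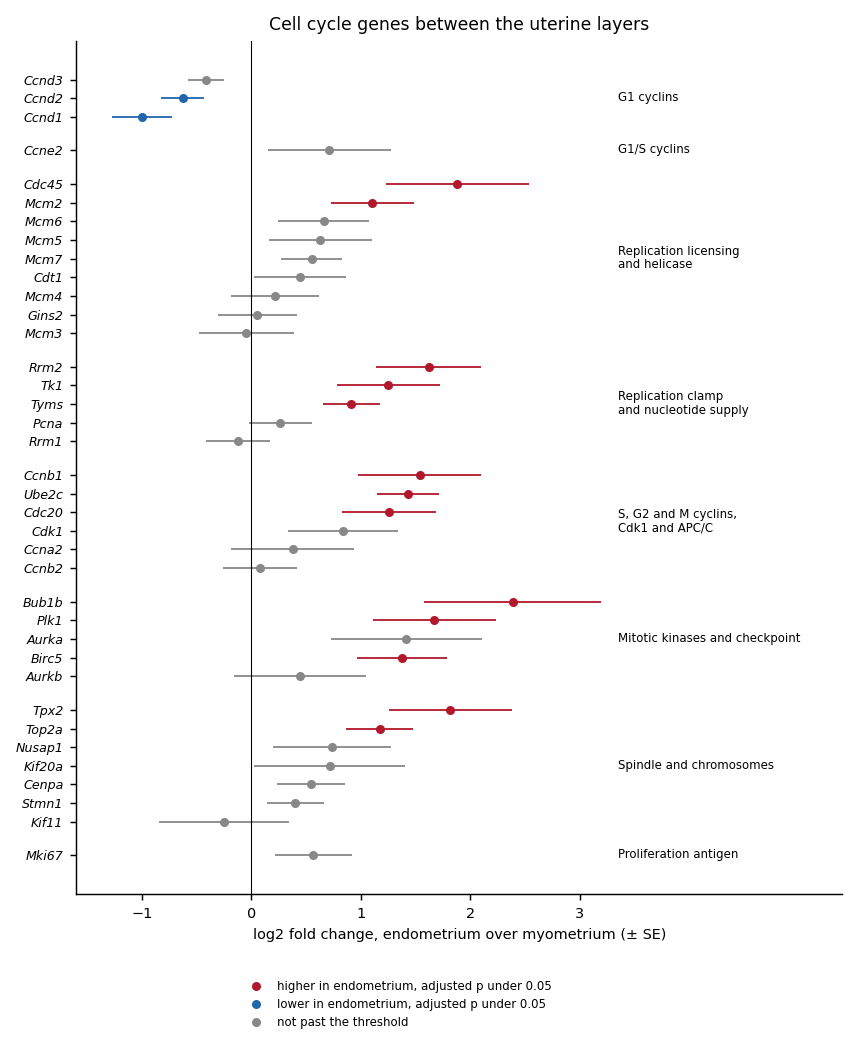
Log2 fold change of endometrium over myometrium, averaged over genotypes, for 37 genes grouped by role, with whiskers of 1 SE; red marks genes higher and blue genes lower in endometrium at adjusted p under 0.05, grey the rest. The D-type cyclins lie left of 0 and most other roles right of it; Bub1b rests on 17 against 2 counts, and Ccne1, Bub1 and Cdc6 are left out for low counts.

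The D-type cyclins bind Cdk4 and Cdk6 and start the inactivation of Rb. Ccnd1 (chr7:152115836-152125774, mm9, minus strand) ran from 10.1 through a median of 37.0 to 60 CPM in WT endometrium and from 6.07 through 33.7 to 83.1 in KO endometrium. In myometrium it ran from 13.8 through 87.4 to 129 CPM in WT and from 37.1 through 67.5 to 121 in KO. The ranges overlapped, but within a mouse endometrium was the lower in 13 of 14, and the log2 fold change was -1.0 (SE 0.273, adjusted p = 0.00483). Ccnd2 (chr6:127075797-127101066, minus strand) was lower in endometrium in 11 of 14 mice, with means over both genotypes of 62.2 and 93.9 CPM and a log2 fold change of -0.63 (SE 0.199, adjusted p = 0.0152); without mouse 4, 7 or 14 its adjusted p was 0.0503, 0.0625 or 0.0618. Ccnd3 (chr17:47642000-47736632, plus strand) was lower in 11 of 14 mice as well, 64.8 against 87.4 CPM, and missed the threshold at -0.41 (adjusted p = 0.0532), which it passed by DESeq2 (adjusted p = 0.0339), but under spike-in scaling it was fitted at -0.01 (adjusted p = 0.97). All 3 genes overlap a gene on the other strand, as do Cdc45, Tyms, Tk1, Cdc20, Ube2c and Top2a among the genes called, and the strand setting of the counting is not given in the sources used here.

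Among the 9 licensing and helicase genes tested, 2 were higher in endometrium and none lower, with a median log2 fold change of 0.55. Mcm2, a subunit of the MCM helicase, ran from 6.04 through 9.12 to 34.5 CPM in WT and from 1.81 through 7.28 to 10.7 in KO endometrium, against 0.0 through 3.32 to 8.74 and 1.56 through 3.91 to 9.91 in myometrium. Endometrium was the higher in 12 of 14 mice, by a log2 fold change of 1.11 (SE 0.380, adjusted p = 0.0252), and the call was lost without mouse 8 (adjusted p = 0.0523) or 13 (0.0516). Cdc45, a helicase cofactor, rested on 24 counts in endometrium and 4 in myometrium, a ratio of 4.43 with a 95% counting interval of 1.52 to 17.6 (adjusted p = 0.0268). It lost its call without mouse 3, 6, 7 or 14 (adjusted p from 0.0524 to 0.0977) and with mouse as a replicate block (0.0831). The other MCM subunits did not pass: Mcm5 was fitted at 0.63 (adjusted p = 0.345), Mcm6 at 0.66 (0.245), Mcm7 at 0.55 (0.135), Mcm4 at 0.22 (0.736) and Mcm3 at -0.04 (0.958).

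Of the 5 genes of the replication clamp and of nucleotide supply, 3 were higher in endometrium. Tyms (chr5:30384742-30400157, minus strand), thymidylate synthase, ran from 7.66 through 24.2 to 39.0 CPM in WT and from 12.0 through 20 to 33.4 in KO endometrium, against 7.88 through 15.3 to 28.2 and 2.93 through 7.89 to 13.1 in myometrium. It was the higher in endometrium in 12 of 14 mice (log2 fold change 0.91, SE 0.258, adjusted p = 0.00627). Rrm2, the S phase subunit of ribonucleotide reductase, had means of 7.85 and 2.51 CPM and a log2 fold change of 1.62 (adjusted p = 0.00926), higher in 10 of 14 mice; its 5′ end has 2 near-identical copies elsewhere in the genome, so its reads may be shared. Tk1, thymidine kinase, had means of 8.92 and 3.77 CPM (1.25, adjusted p = 0.0413), and its call was lost without mouse 1, 4, 6, 7, 9, 10 or 12 (adjusted p from 0.0555 to 0.154). Rrm1, the constitutive reductase subunit, was at 17.6 and 19.2 CPM (-0.12, adjusted p = 0.806), and Pcna at 11.0 and 9.48 CPM (0.27, adjusted p = 0.534), so neither passed.

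In the role of S phase and mitotic cyclins, Cdk1 and the anaphase-promoting complex, 3 of 6 genes were higher in endometrium, with a median of 1.05. Ube2c (chr2:164595398-164604322, plus strand), the ubiquitin-conjugating enzyme of that complex, ran from 7.54 through 39.4 to 101 CPM in WT and from 15.2 through 40.9 to 82.9 in KO endometrium, against 5.43 through 13.1 to 19.7 and 9.81 through 17.7 to 26.4 in myometrium. It was higher in endometrium in 12 of 14 mice, with a log2 fold change of 1.43 (SE 0.281, adjusted p = 0.000123). Ube2c overlaps Tnnc2 on the other strand, which held 0 and 1 counts in the WT and KO endometrium groups and 8 and 11 in the myometrium groups. Cdc20, the activator of the complex, had means of 11.3 and 4.45 CPM (1.26, adjusted p = 0.0252), and lost the call without mouse 1 (0.0692) or 10 (0.0523). Ccnb1, cyclin B1, rested on 39 and 12 counts (1.54, adjusted p = 0.0364), its 5′ end has 9 near-identical copies elsewhere, and its adjusted p ran from 0.0513 to 0.171 without mouse 2, 7, 9, 13 or 14 and was 0.118 with mouse as a replicate block. Cdk1 itself, at 6.94 and 3.79 CPM, did not pass (0.84, adjusted p = 0.22), nor did Ccna2 or Ccnb2.

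Of the 6 mitotic kinase and checkpoint genes 3 were higher in endometrium, with a median of 1.4. Birc5 (survivin, of the chromosomal passenger complex; chr11:117710565-117717069, plus strand) ran from 2.51 through 12.1 to 30.0 CPM in WT and from 2.77 through 11.2 to 25.8 in KO endometrium, against 0.0 through 4.08 to 9.85 and 0.0 through 6.92 to 13.8 in myometrium. Its log2 fold change was 1.38 (SE 0.409, adjusted p = 0.00945), although only 9 of 14 mice were the higher in endometrium. Plk1, the kinase of mitotic entry, had 52 and 14 counts (1.67, adjusted p = 0.0218; higher in 11 of 14 mice). Bub1b, the checkpoint protein BubR1, had 17 counts in endometrium and 2 in myometrium, a ratio of 6.28 with a 95% counting interval of 1.49 to 56.0 (adjusted p = 0.0246), and it lost the call without mouse 6 (0.0629) or 12 (0.0688) and in the replicate block fit (0.0612). Aurka rested on 21 and 6 counts and Aurkb on 27 and 15 counts, and neither passed.

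Of the 7 spindle and chromosome genes, Top2a and Tpx2 were higher in endometrium. Top2a (chr11:98854257-98885503, minus strand), the topoisomerase that decatenates chromosomes, ran from 13.3 through 50.4 to 173 CPM in WT and from 10.7 through 24.9 to 69.1 in KO endometrium, against 9.95 through 21.8 to 36.7 and 11.8 through 19.5 to 32.7 in myometrium. The highest value, in WT mouse 1, came from 57 counts in the library with the fewest gene counts. Endometrium was the higher in 12 of 14 mice, by a log2 fold change of 1.17 (SE 0.305, adjusted p = 0.0032). Tpx2, which targets Aurora A to the spindle, rested on 42 and 9 counts (1.82, adjusted p = 0.0126). Stmn1 (chr4:134024235-134029758, plus strand) at 43.1 and 32.8 CPM (0.40, adjusted p = 0.266) and Cenpa at 23.1 and 15.9 CPM (0.55, adjusted p = 0.192) were higher in endometrium in 11 of 14 mice each without passing (the 5′ end of Stmn1 has 2 near-identical copies elsewhere), and both passed under spike-in scaling (adjusted p = 0.0387 and 0.0312). Mki67 (chr7:142881471-142908062, minus strand), the Ki-67 antigen used to label dividing cells, ran from 2.40 through 12.1 to 17.9 CPM in WT and from 5.44 through 8.19 to 31.8 in KO endometrium and from 1.73 to 17.7 CPM in myometrium, and did not pass either (0.57, adjusted p = 0.241; higher in 10 of 14 mice).

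The layers differed in the cells they held, and the part of this in the values above was not tested. All 4 smooth muscle genes (Acta2, Des, Myh11, Cnn1) were lower in endometrium, with sums of 199 to 8120 CPM there against 8510 to 25400 in myometrium, and all 4 epithelial genes (Krt8, Krt18, Epcam, Cdh1) were higher, with sums of 652 to 2260 CPM against 54.7 to 605. Of the 4 stromal fibroblast genes (Pdgfra, Dcn, Lum, Col1a1) 3 were lower in endometrium, of 6 leukocyte genes (Ptprc, Cd68, Lyz2, Cd3e, Cd79a, S100a8) 1 was higher, and none of 3 endothelial genes (Pecam1, Cdh5, Kdr) passed; no gene of these lists was at 0 in a whole group. The oviduct gene Ovgp1 was higher in endometrium, at 7.54 to 103 CPM in 6 WT mice and 5050 CPM in mouse 8. The endometrium of mouse 8 also held the highest Mcm2 level, 34.5 CPM, and the highest WT sum of D-type cyclins, 231 CPM. Smooth muscle genes summed highest in the endometrium of mice 3 and 13, at 7150 and 8120 CPM, and epithelial genes in the myometrium of mouse 5, at 605 CPM. Without these 3 mice 12 genes of the set were higher and 2 lower in endometrium, Cdc45 having lost its call (adjusted p = 0.138). The letter of the library code in the labels also went with the tissue, apart from the repeat libraries of mouse 13 (endometrium, 3 letters) and mouse 12 (myometrium, 2 letters), and its part in these values was not tested.

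Promoter letters were counted for the genes that passed between the layers. CHR letters stood in 7 of the 12 matched promoters of genes called (58.3%) and in 6 of the 18 others (33.3%). E2F letters stood in none of the 12 and in 7 of the 18 (38.9%). The genes with E2F letters, which include Mcm5, Mcm6 and Mcm7 printed above, thus all lay outside the genes called, and Cdc6 among them was not tested. Mcm5, Mcm6 and Mcm7 were fitted higher in endometrium without passing. Both kinds of letters also went with role, as given above, so motif and role cannot be told apart in these counts.

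Other cell cycle genes, 104 in a list drawn up from general knowledge of the cycle, gave 16 higher and 7 lower of 101 tested, with a median of 0.41. The most significant higher in endometrium were Cks2, a Cdk-binding subunit (1.68, adjusted p = 3.46e-06), Pttg1, securin (1.36, 4.32e-05), Fen1, the flap endonuclease (2.33, 0.000119), Ncapd2, a condensin subunit (2.22, 0.000162), and Hmgb2, a chromatin protein (0.94, 0.00034). Those lower were led by Pola2, of DNA polymerase alpha (-2.14, 5.16e-07), Cdkn2c, an inhibitor of Cdk4 and Cdk6 (-1.67, 2.28e-05), Rpa3, of replication protein A (-0.84, 0.00797), Cdk6, the partner of D-type cyclins (-0.79, 0.0225), and Chek2, a checkpoint kinase (-1.79, 0.0255). These were 15.8% and 6.93% of the list, against 14.9% and 13.4% of all genes. Some named genes were low on a side. Fen1 had means of 0.984 and 1.94 CPM in WT and KO myometrium. Chek2 had means of 0.365 and 1.51 CPM in WT and KO endometrium. By subgroup, 5 of 34 mitosis genes were higher and 0 lower, 4 of 26 polymerase and fork genes were higher and 2 lower, and 2 of 6 Cdk inhibitors were higher and 2 lower.

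Within a single genotype fewer genes passed, with 7 mice per side. In WT, 4 of 38 genes tested were higher in endometrium (Ube2c, Plk1, Birc5 and Top2a), where 6.81% of all genes were, and 1 was lower (Ccnd1), where 6.39% were. Top2a was the higher and Ccnd1 the lower in endometrium in 7 of 7 WT mice, with log2 fold changes of 1.61 (adjusted p = 0.0104) and -1.15 (adjusted p = 0.0346). Plk1 had 31 against 3 counts, a ratio of 10.2 with a 95% counting interval of 3.19 to 52.4 (adjusted p = 0.0168). Ube2c stood at 1.81 (adjusted p = 0.0041) and Birc5 at 1.76 (adjusted p = 0.031). The call on Ccnd1 was lost without mouse 1, 7, 8, 10 or 12 (adjusted p from 0.052 to 0.133) and under spike-in scaling (0.167), that on Birc5 without mouse 1, 3, 7 or 12 (0.0649 to 0.141), and that on Plk1 without mouse 7 (0.0555). Without mice 3 and 5 both Plk1 (0.0647) and Birc5 (0.0821) were lost and Tk1 (2.26, adjusted p = 0.0204) was gained, which gave 3 genes higher and 1 lower. With mouse as a replicate block Mcm2 (1.60, adjusted p = 0.0287) and Cdc20 (1.59, adjusted p = 0.0247) passed as well.

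In KO, 4 of 37 genes tested were higher in endometrium (Rrm2, Tyms, Ccnb1 and Ube2c), where 10.6% of all genes were, and 1 was lower (Ccnd2), where 8.71% were. Tyms was the higher and Ccnd2 the lower in 7 of 7 KO mice, with log2 fold changes of 1.39 (adjusted p = 0.00837) and -1.17 (adjusted p = 0.00726). Ccnb1 had 24 against 2 counts, a ratio of 6.82 with a 95% counting interval of 1.69 to 59.5 (adjusted p = 0.0374). Rrm2 was at 1.89 (adjusted p = 0.0187), with 58 counts in endometrium and 8 in myometrium, and Ube2c at 1.07 (adjusted p = 0.0285). Leaving out a mouse took away the calls on Ccnb1 (mouse 2, 4, 9, 11, 13 or 14, adjusted p from 0.0521 to 0.111), Rrm2 (2, 4 or 13, 0.0602 to 0.0851) and Ube2c (2, 4, 6 or 9, 0.0802 to 0.0968), and spike-in scaling that on Ccnd2 (0.0971). Without mouse 13 Ccnd1 was gained as lower (-1.23, adjusted p = 0.0235), which gave 2 genes higher and 2 lower. Ccnb1 did not pass by DESeq2 (0.0533), nor Rrm2 with 1 library per mouse (adjusted p = 0.05). With mouse as a replicate block Ccnd1 was lower too (-1.04, adjusted p = 0.00195) and Ccnb1 no longer passed (0.056). Apart from Ube2c the called genes of WT and KO differ, which is not a test of a difference between the genotypes. That difference was tested as the interaction of genotype and layer. In it 0 of 39 genes passed (0.0% of all 14314 genes), 2 had an unadjusted p under 0.05 (Ccnd2 and Plk1; 4.6% of all genes), and DESeq2 called 0 as well (0.0%). Ccnd2 had the smallest p, its log2 fold change between the layers being lower by 1.09 in KO than in WT (-1.09, SE 0.397, adjusted p = 0.97).

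**Figure D3:**
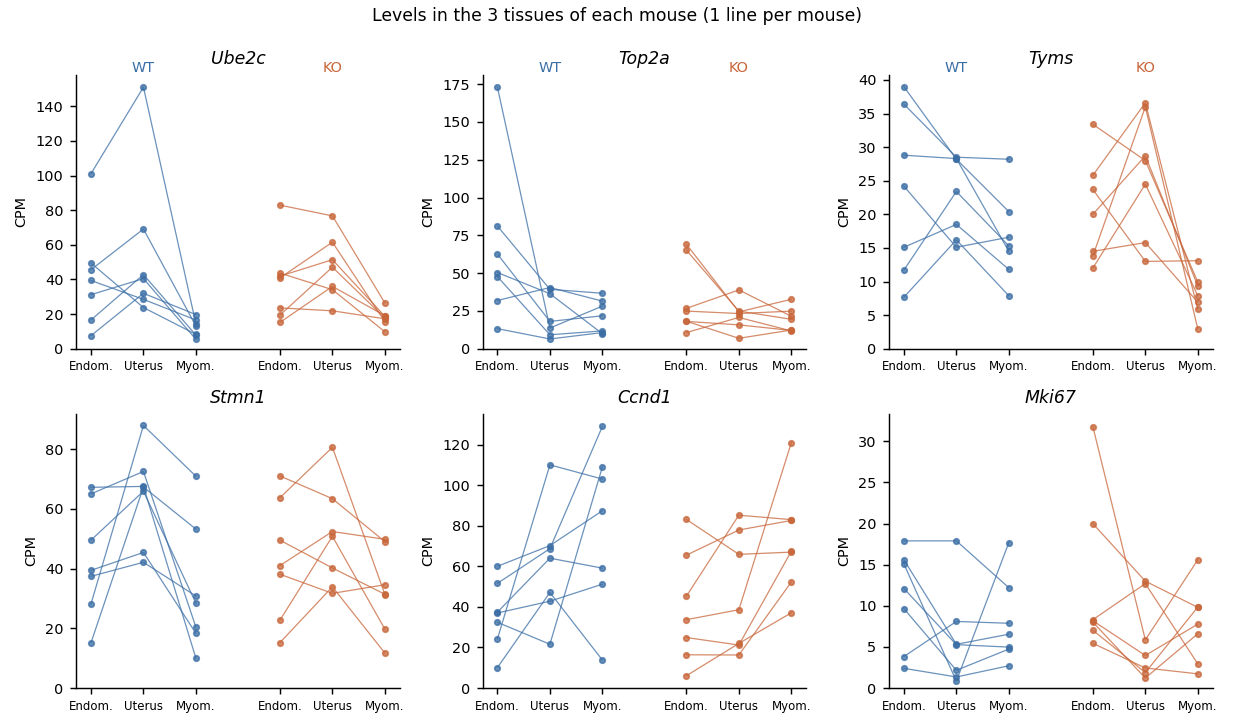
CPM of 6 genes in the endometrium, uterus and myometrium of each mouse, 1 line per mouse, WT blue and KO orange. Endometrium lies above myometrium in 12 of 14 mice for Ube2c, Top2a and Tyms and in 11 of 14 for Stmn1, and lies below it in 13 of 14 mice for Ccnd1.

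The whole horn holds both layers, and its mean lay between theirs for 17 of 39 genes, above both for 15 and below both for 7. Against myometrium, 9 of 39 genes were higher in uterus, where 14.1% of all 14822 genes were, and 0 were lower, where 11.4% were. Spike-in scaling, which moved the median of all genes to 0.58, gave 24 genes higher, and adjusted p under 0.1 gave 13 higher and 1 lower. The 9 genes called at adjusted p under 0.05 were Ube2c (log2 fold change 1.80, adjusted p = 8.58e-06, higher in 14 of 14 mice), Birc5 (1.73, 0.000543, 14 of 14), Tk1 (1.96, 0.000575, 13 of 14), Tyms (1.09, 0.00057, 12 of 14), Cenpa (1.06, 0.00482, 13 of 14), Stmn1 (0.82, 0.00946, 13 of 14), Rrm2 (1.70, 0.00769, 11 of 14), Plk1 (1.59, 0.0348, 10 of 14) and Tpx2 (1.64, 0.0279, 10 of 14). Ube2c reached 23.8 through 40.5 to 151 CPM in WT uterus and 21.9 through 47.1 to 76.7 in KO uterus, and only the latter range overlapped that of its myometrium, which ended at 19.7 in WT and 26.4 in KO. Plk1 lost its call without mouse 2, 4, 5, 7, 8, 12 or 14 (adjusted p from 0.0505 to 0.149), Tpx2 without mouse 2, 4, 7 or 10 (0.0616 to 0.0773) or with mouse as a replicate block (0.0612), and Rrm2 without mice 3, 5 and 13 together (0.0704). In the replicate block fit Ccnd1 was lower in uterus than in myometrium (-0.55, adjusted p = 0.0468).

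Against endometrium, 0 of 39 genes were higher in uterus, where 6.31% of all genes were, and 1 was lower, where 3.89% were. That gene was Top2a, at 6.48 through 18.1 to 40.5 CPM in WT uterus and 6.92 through 23.3 to 38.9 in KO uterus, below endometrium in 11 of 14 mice (log2 fold change -1.0, SE 0.305, adjusted p = 0.0258). The call depended on single mice, with an adjusted p of 0.122 without mouse 1, 0.0552 without mouse 3, 0.08 without mouse 6 and 0.0736 without mouse 9, and was lost under spike-in scaling (-0.65, 0.141) and without mice 3, 5 and 13 (0.079). Mki67 was the lower in uterus in 11 of 14 mice too (-0.97, adjusted p = 0.0971), and passed with mouse as a replicate block (-1.02, adjusted p = 0.0313). The 2 were the genes of the set lowest in uterus against endometrium among those with over 3 counts in some sample of each tissue.

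Top2a and Mki67 have long transcripts, and the genes whose horn mean lay above both layers had shorter ones by median than the others. Genes above both layers had a median longest transcript of 2189 bases, those between 3422 and those below both 3421. Genes at the floor were kept in these medians, Ccne1 and Bub1 among those below both. They were left out of the correlations that follow. Across 36 genes of the set, the log2 fold change of uterus over endometrium correlated with the log of transcript length at r = -0.48 (Spearman -0.4), and across 35 genes that of uterus over myometrium at r = -0.48 (Spearman -0.47). Over all genes tested these were -0.23 (-0.27) and -0.34 (-0.37), also negative but closer to 0, and no test compared them with the set. For endometrium over myometrium the correlation was -0.14 (-0.13) in the set and -0.13 (-0.16) in all genes. These correlations are across genes that share the same libraries and are given as a description. The part of transcript length in the horn comparisons was not tested.

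**Figure D4:**
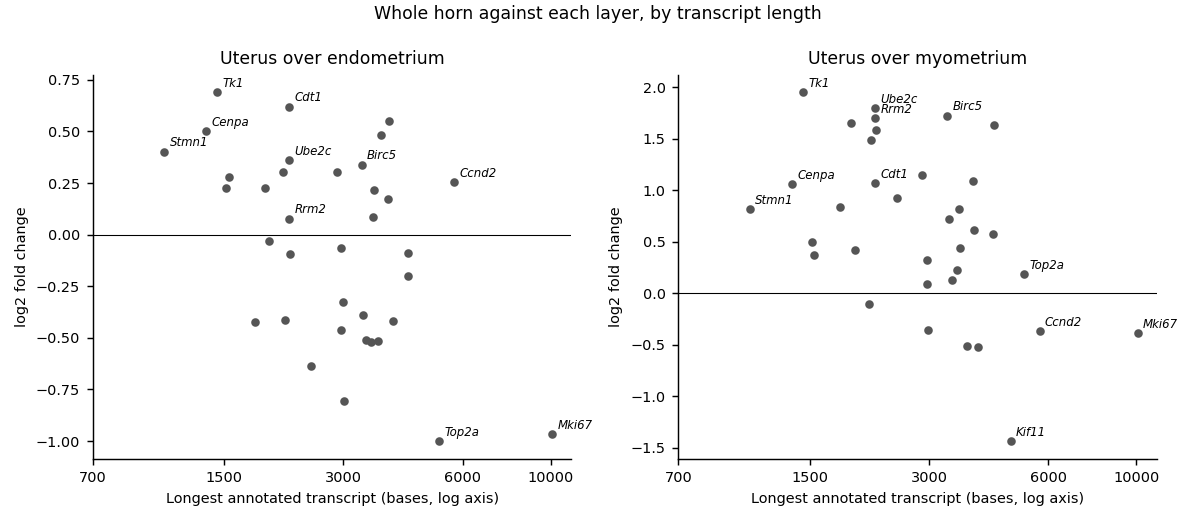
Log2 fold change of uterus over endometrium (left) and uterus over myometrium (right), averaged over genotypes, against the longest annotated transcript in bases on a log axis, 1 point per gene of the set above the floor. The short Tk1, Cenpa and Stmn1 lie above 0 in both panels and the long Mki67 below 0 in both. Other genes depart from this order: the longer Birc5, Tyms and Gins2 lie above 0 in both, and the short Cdc20 lies below 0 on the left.

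The study asked whether loss of Plag1 changed the uterus, so each tissue was compared between KO and WT. The labels could not be checked on Plag1 itself, which had 0 or 1 count in every sample of both genotypes. Code rows A to C of the library labels held mice 1 to 8, mostly WT, and rows D to F mice 9 to 14, mostly KO. The rows thus went partly with genotype. No gene of the set differed between the genotypes in any tissue at adjusted p under 0.05, by edgeR or by DESeq2. With this split of code rows as covariate, 0 genes of the set passed in each tissue. In uterus 0 of 37 genes passed (0.0% of all 12959 genes by either tool), and 1 of 37 had an unadjusted p under 0.05, where 5.64% of all genes did. In endometrium 0 of 37 passed (0.0% of 13004 genes by edgeR, 0.00769% by DESeq2), and 3 of 37 had an unadjusted p under 0.05, where 5.2% did. In myometrium 0 of 35 passed (0.0% of 12991 genes by either tool), and 2 of 35 had an unadjusted p under 0.05, where 4.22% did. Median log2 fold changes of the set were -0.16, -0.13 and -0.12 in uterus, endometrium and myometrium, against -0.05, 0.02 and -0.03 over all genes.

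**Figure D5:**
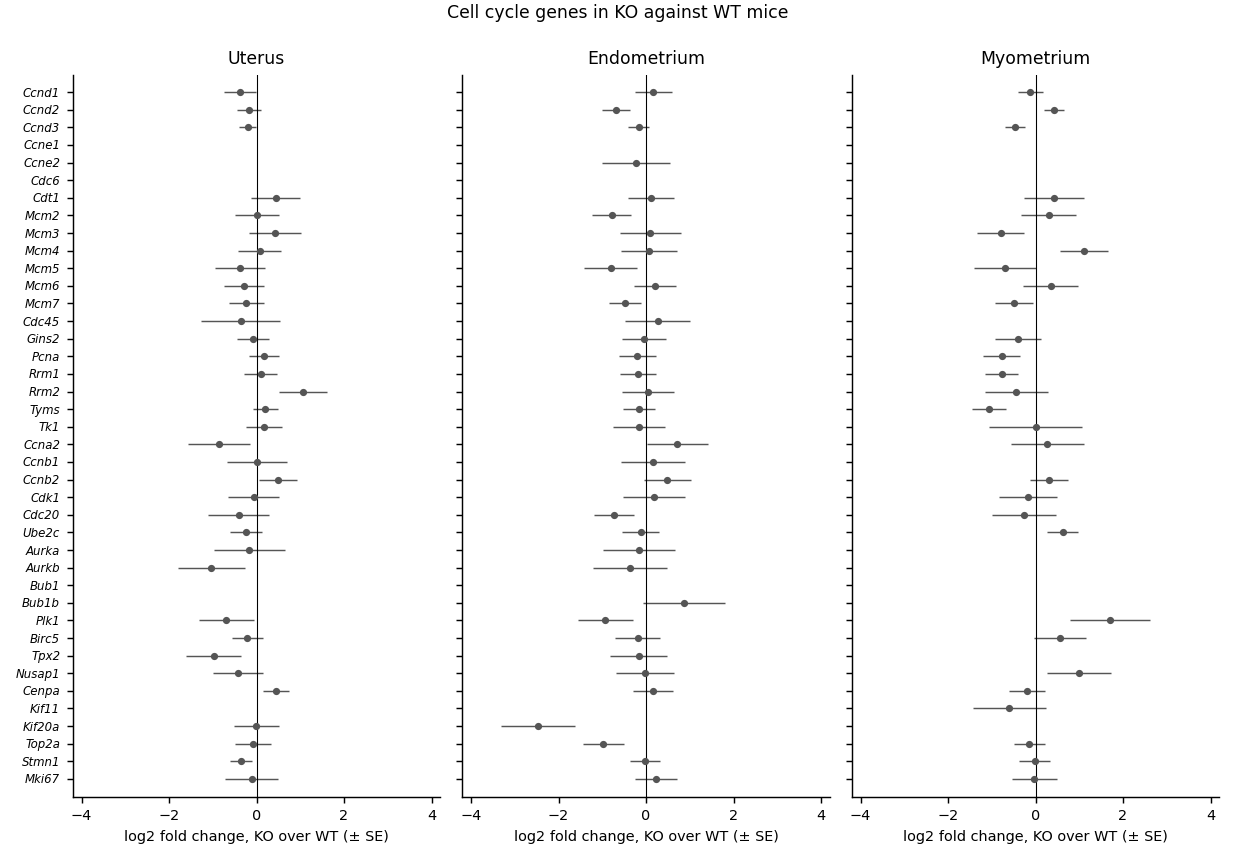
Log2 fold change of KO over WT for each gene of the set in uterus, endometrium and myometrium, with whiskers of 1 SE; genes not tested, or at or under 3 counts in every sample of both genotypes, have no point. No point passed adjusted p under 0.05.

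The smallest p in endometrium was that of Kif20a, a kinesin of cytokinesis, with 23 counts in WT and 6 in KO and no KO sample above 2 counts (adjusted p = 0.855). WT values ran from 0.0 through 4.80 to 24.3 CPM, and the 24.3 was that of mouse 1, the library with the fewest counts. Top2a was at 65.7 ± 51.9 CPM in WT and 33.3 ± 23.7 in KO endometrium (SD, n = 7 each; log2 fold change -0.98, SE 0.463, adjusted p = 0.952), and Ccnd2 at 76.7 ± 26.3 and 47.7 ± 29.2 (-0.68, SE 0.315, adjusted p = 0.938). For both genes the WT and KO ranges overlapped. Mki67 was at 10.9 ± 5.97 and 12.7 ± 9.72 CPM (0.22, SE 0.479, adjusted p = 0.998).

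In myometrium the smallest p was that of Tyms, which ran from 7.88 through 15.3 to 28.2 CPM in WT and from 2.93 through 7.89 to 13.1 in KO (log2 fold change -1.07, SE 0.386, adjusted p = 0.99). Pcna (-0.78, SE 0.413) and Rrm1 (-0.78, SE 0.388) were fitted on the same side, both with an adjusted p of 1.0, while Tk1 was at 3.91 CPM in WT and 3.62 in KO. Ccnd3 was at 101 ± 32.1 CPM in WT and 73.5 ± 21.5 in KO (-0.47, SE 0.227, adjusted p = 1.0), and Ccnd2 was fitted the other way (0.41, SE 0.231). In uterus the smallest p was that of Kif11, a spindle kinesin (adjusted p = 0.836), which had 10 counts over the WT and 1 over the KO samples, all at or under the floor, so no fold is given. Standard errors of the better counted genes in uterus were 0.191 for Ccnd3, 0.247 for Stmn1, 0.287 for Tyms, 0.37 for Ube2c and 0.413 for Top2a on the log2 scale, while that of Mki67 was 0.612, and changes of the size of these errors could not be detected with 7 mice per side at this depth. These errors hold both the spread between mice and the counting error. Of the other cell cycle genes, 0 of 91, 0 of 92 and 0 of 85 tested passed in uterus, endometrium and myometrium.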

How the data were processed

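RNA from the uterus, scraped endometrium and myometrium of 7 WT and 7 Plag1KO mice was sequenced by STRT as 1 pool of libraries. The authors deposited counts per gene, 24422 genes and 92 ERCC spike-ins in 45 libraries, not normalized. Their methods state that molecular identifiers were merged, reads aligned to mm9 with TopHat and genes counted with Homer over UCSC annotation, while the submitters' processing notes name HTSeq; versions and strand setting are not given in the sources used here. Totals were 256298 to 1222627 gene counts per library, spike-ins left out. A mouse of each genotype that the design text adds was not analysed here.

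Repeat libraries of 1 mouse and tissue were summed (KO mouse 13 endometrium, 3 libraries; WT mouse 12 myometrium, 2), giving 42 samples. A comparison tested the genes that reached 1 CPM in 5 or more of its samples with edgeR 4.0.16 (TMM, quasi-likelihood F test, Benjamini-Hochberg, adjusted p under 0.05) in R 4.3.3. A floor of 3 counts per sample was used, and counting intervals (95%) cover counting error only. Same-numbered samples come from the same mouse; their deviations from group means over 14822 genes correlated at 0.0275 to 0.123 in WT and 0.0845 to 0.179 in KO. Alternatives were DESeq2 1.42.0, spike-in scaling, relative log expression factors, no filter, a filter at 10 CPM, 1 library per mouse, code rows as covariate, all 6 groups in a single fit, adjusted p under 0.1, plain library totals for levels, mouse as replicate block, each mouse left out and, added after seeing the data, mice 3, 5 and 13 left out. The procedure was tested on simulated data. Motifs were searched in RefSeq promoters (GRCm38.p6), and printed windows were placed on mm9 by exact match.

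The 40 genes, their roles and the other lists were chosen with earlier results of these data known. Values are given for every gene of the set that was called and for Mki67, Top2a, the D-type cyclins, Pcna, Mcm2, Mcm5, Mcm6, Ccnb1, Cdk1 and Stmn1, for the gene with the smallest p where none was called, and for up to 5 other cell cycle genes in each direction between the layers; any further gene was named after its values were seen.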

Additional observations from a re-analysis of the deposited data

Results flagged for a closer look

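In 10 of 78 groups of 7 mice examined (3 summed roles and 10 genes in 6 groups), 1 mouse stood apart from the rest by Dixon's test. For normally distributed values chance passes it in about 1 of 20 groups. The sums contain some of the genes, such as Ube2c and Mki67 in the G2 and mitosis sum. The flags are therefore not independent, and their share cannot be set against that rate. WT mouse 7 stood apart in uterus 4 times: its G2 and mitosis genes summed to 481 CPM (others 150 to 289), Ube2c was at 151 CPM (23.8 to 69.1), Mki67 at 17.9 CPM (0.842 to 8.10) and Ccnd3 at 102 CPM (77.4 to 86.1). KO mouse 6 stood apart for Ccnd2 in uterus, at 126 CPM (43.8 to 78.0), and in endometrium, at 111 CPM (26.3 to 52.8). In WT endometrium Top2a was at 173 CPM in mouse 1 (13.3 to 81.2), and the D-type cyclins summed to 231 CPM in mouse 8 (161 to 186). In KO endometrium Ube2c was at 82.9 CPM in mouse 4 (15.2 to 43.7). In KO myometrium the D-type cyclins summed to 330 CPM in mouse 14 (220 to 263).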

How the results depend on the processing

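Counts of called genes stayed within 1.5 times the value reported in 175 of 194 recalculations. These include the genotype comparisons and the interaction, where the count was 0 throughout. An equal count can also hold other genes. Between the layers in WT, spike-in scaling gave 5 higher and 0 lower, in place of 4 and 1. Spike-in scaling raised the median over all genes, on the log2 scale, to 0.21 and 0.58 for endometrium over myometrium in WT and KO, 0.39 averaged over genotypes, 0.17 and 0.58 for uterus over endometrium and over myometrium, 0.27 for KO over WT in endometrium and 0.35 for the interaction, and lowered it to -0.37 for KO over WT in uterus. Under it 8 genes were called between the layers in KO, 16 averaged over genotypes (16 higher and 0 lower, in place of 13 and 2), 0 for uterus over endometrium and 24 for uterus over myometrium. A filter at 10 CPM, which tests fewer genes, left 3 calls between the layers in KO and 10 averaged over genotypes, and adjusted p under 0.1 gave 2 for uterus over endometrium and 14 for uterus over myometrium. With mouse as a replicate block, 2 genes were called for uterus over endometrium and 12 between the layers averaged over genotypes, and beyond the changes given beside the results the block changed no other call. With all 6 groups in a single fit Ccnd1 was lost between the layers in WT (adjusted p = 0.056) and Rrm2 (0.0681) and Ube2c (0.0716) in KO; DESeq2 lost Cdc45 (0.0575) and Bub1b (0.123) averaged over genotypes and Ccnb1 (0.0533) in KO, and 1 library per mouse lost Rrm2 in KO (0.05). Without mice 3, 5 and 13 there were 0 calls for uterus over endometrium. Leaving out each mouse in turn gave 2 to 6 calls between the layers in WT, 3 to 4 in KO, 11 to 17 averaged over genotypes, 0 to 2 for uterus over endometrium, 7 to 11 for uterus over myometrium and 0 in each genotype comparison and the interaction. No fitted log2 fold change followed here changed direction, but a summed level did. The D-type cyclins summed higher in uterus than in myometrium in 1 of 14 mice, and with spike-in scaling in 12 of 14. Apart from the fewer genes or samples, the cause of these shifts was not tested. Depth limits the set: 13 of 40 genes had under 100 counts in all.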
